A study of Rattus norvegicus with 24 samples.

Results

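Rat hearts that received acupuncture at the Yanglingquan point before coronary ligation were compared with hearts that had the ligation and no acupuncture. The comparison holds 8 of the 24 arrays of the series, chosen by their labelled group: 4 Yanglingquan arrays and 4 IRI arrays, where IRI stands for myocardial ischaemia-reperfusion injury. All genes measured on the arrays were examined. In each group 2 animals were labelled male and 2 female.

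The tissue was myocardium of rats, and its RNA was labelled with Cy3 and hybridised to single-colour Agilent expression arrays. The series has 6 groups of 4: sham, IRI, and the acupoint groups Jiaji, Neiguan, Yanglingquan and Quchi. The left anterior descending coronary artery was ligated in the IRI group and in every acupoint group, so the injury is shared by both sides of this comparison, and the acupoint groups had 7 days of acupuncture before it. The sources used here do not give the strain, the age, the reperfusion time, the hour of collection, the part of the heart sampled or any sham needling. The labels say no more of the replicates than their numbers, so a p-value reflects how these samples spread, which may be partly technical.

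Ligation of the left anterior descending artery stops flow to much of the left ventricular wall, and reperfusion restores oxygen at the price of oxidative stress, calcium overload and inflammation. The working heart draws most of its energy from fatty acids burnt in mitochondria, and injured heart muscle typically lowers these genes and raises immediate early, inflammatory and wall stress genes. Yanglingquan is a classical acupoint on the outer side of the leg below the knee, and acupuncture is thought to act on the heart through somatic nerves and the autonomic outflow.

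All 4 arrays of the Yanglingquan group had fewer probes above background than any IRI array. The scanner software marks each spot as well above background or not, and the share of the 30367 probes so marked was 84.1%, 85.2%, 88.8% and 81.1% on the IRI arrays, a mean of 84.8% ± 3.14 (SD, n = 4). On the Yanglingquan arrays it was 71.6%, 71.2%, 76.4% and 74.7%, a mean of 73.5% ± 2.53 (SD, n = 4). The difference was -11.3 percentage points; it was known when the comparison was chosen and is given as a description, with no test. The means of the other groups were 83.9% for sham, 82.8% for Jiaji, 80.1% for Neiguan and 81.2% for Quchi, and the lowest Neiguan array, at 76.1%, and the lowest Quchi array, at 75.6%, lay within the Yanglingquan range. Slides were inferred from the scan times: arrays with the same time were taken as 1 slide. By this reading each of the 2 groups compared lay on 1 slide of its own. The sham and IRI arrays were scanned on 1 day and no acupoint array on that day, so slide, scan day and treatment cannot be told apart here. As a check of the tissue label, all 8 cardiomyocyte markers were well above background on all 8 arrays. So were all markers tested of fibroblasts (5), endothelium (4), macrophages (4), mast cells (4) and red cells (4) and 4 of 5 of neurons and Schwann cells. Of the adipocyte and liver markers 0 of 2 and 0 of 3 were above background on all 8 arrays, though each was on some. A left-out spot also fails this count: only 2 of the 3 liver markers had every spot, and the highest group mean of a liver marker was 3.14.

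The differences between the groups varied with how bright a gene was. Levels are given as log2 intensity relative to the 75th percentile of the same array, so that 0 is a gene as bright as that percentile, and differences are Yanglingquan minus IRI on the log2 scale. Over all 12894 genes tested the median difference was -0.04. The genes were split into 4 equal classes by their mean level, and the median was -0.37 in the faintest class, -0.06 and 0.02 in the next classes, and 0.11 in the brightest. After quantile normalization the 4 medians were -0.05, 0.03, 0.03 and 0.01, and the distance between the faintest and the brightest genes was largely gone. List medians below are therefore to be read against the median of all genes, -0.04 on the 75th percentile scale, 0.01 after quantile normalization and -0.01 under normexp background correction. A call (adjusted p under 0.05 in limma, Benjamini-Hochberg over all genes) is followed on 3 scales: the 75th percentile scale, quantile normalization and the authors' own processed values. Quantile normalization and the authors' values gave 856 and 858 calls and often close differences, so the 3 scales are not independent checks.

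**Figure D1:**
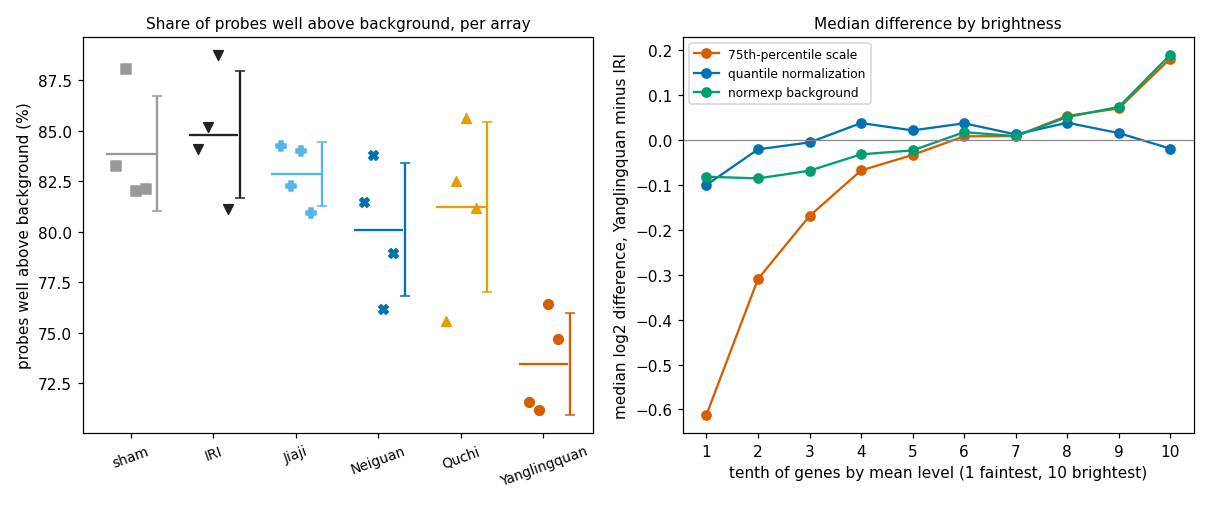
Left, the percent of probes well above background on each of the 24 arrays by group, 1 point per array, with lines at the means and bars of 1 SD; right, the median log2 difference of Yanglingquan minus IRI in 10 brightness classes of genes on 3 scales. The Yanglingquan arrays sit lowest at 71.2% to 76.4%, and on the 75th percentile scale the difference runs from -0.61 in the faintest class to 0.18 in the brightest.

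On the 75th percentile scale 527 genes rose in the Yanglingquan arrays (4.09% of those tested) and 1036 fell (8.03%), together 12.1%. The fallen genes were mostly faint: 637 of 3224 genes in the faintest class fell (19.8%), against 66 in the brightest (2.05%). The risen genes were mostly bright, with 283 in the brightest class (8.78%) and 67 in the faintest (2.08%). Quantile normalization gave 365 higher (2.83%) and 491 lower (3.81%), the authors' processed values 330 higher (2.56%) and 528 lower (4.09%), and normexp background correction 361 higher and 292 lower. Scaling each array by its median gave 910 higher and 779 lower, so that 53.9% of the calls were higher in place of 33.7%. The scale by the 75th percentile of probes above background on all arrays gave 371 higher and 1202 lower, or 23.6% higher.

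A smaller set of genes held on all 3 scales: 242 higher (1.88%) and 417 lower (3.23%), 5.11% of all genes. In 204 of the higher and 396 of the lower genes the 4 Yanglingquan arrays did not overlap the 4 IRI arrays, against 5.42% and 10.1% of all genes. Leaving out IRI array 1 reduced the set to 133 higher and 287 lower, 420 in all. Asking for a call under normexp as well, a check added after the data were seen, left 144 higher and 244 lower, 388 in all.

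The largest rises were switch-like and were shared by all acupoint groups. Krt80, which codes for a type II keratin of epithelia, stood at -4.95, -4.37, -4.58 and -5.38 on the IRI arrays and at 1.13, 1.68, 1.16 and 1.54 on the Yanglingquan arrays. The 2 groups lay far apart, a 73.5-fold difference (log2 6.20 ± 0.26 SE, limma adjusted p = 3.17e-12). The Jiaji, Neiguan and Quchi means were 1.52, 1.62 and 0.95 and the sham mean was -6.06, so Krt80 separated the acupoint arrays from the sham and IRI arrays and not Yanglingquan from the other points (difference 0.02, adjusted p = 0.967).

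Mcc, a gene named for its mutation in colorectal cancers, rose from -4.83, -4.26, -4.51 and -4.61 to 0.63, 1.04, 0.82 and 1.40 (46.1-fold, adjusted p = 2.78e-11). Evc2, which codes for a hedgehog pathway protein of the primary cilium, rose from -5.0, -4.49, -4.70 and -5.04 to -0.04, 0.62, 0.33 and 0.94 (38.5-fold, adjusted p = 9.04e-11). Pinx1, an inhibitor of telomerase, was well measured on both sides and rose from -0.51, -0.32, -0.93 and -0.79 to 3.07, 3.49, 3.20 and 3.57 (15.6-fold, adjusted p = 1.11e-10). In none of these genes did any Yanglingquan array reach down to the IRI range. Cd80 is the costimulatory ligand on antigen-presenting cells that T cells read through CD28 and CTLA4. It stood at -6.38, -5.19, -5.08 and -5.86 in IRI and at -2.81, -2.50, -2.81 and -2.28 in Yanglingquan (8.17-fold, adjusted p = 0.000352). Across the processing alternatives its log2 difference was as low as 1.26.

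Cyp4a2 codes for a fatty acid omega-hydroxylase of the cytochrome P450 4A family, which also makes the vasoconstrictor 20-HETE from arachidonic acid, and its genes are textbook targets of the fatty acid receptor PPAR alpha. On the IRI arrays it was at -7.97, -7.78, -6.72 and -8.37 and not well above background on any; on the Yanglingquan arrays it was at -4.21, -3.63, -2.43 and -2.29 and above background on all. Because the IRI side is only a bound, the difference is given as at least 11.6-fold, the Yanglingquan mean against the faintest signal that still counts as above background on each IRI array (adjusted p = 1.35e-07). Such bounds, here and below, hold on the scale of the levels given and not on every scale. Under normexp the log2 difference of Cyp4a2 was 1.36, which is below its bound. The promoter window of Cyp4a2 is shown because this gene is the one classical PPAR alpha target among the largest differences. The window is the 250 bases before the gene's start, on the minus strand at chr5:134170909-134171158, GRCr8 build, from RefSeq. Capitals mark AGGTCA, the half-site that PPAR and other nuclear receptors bind.
Cyp4a2: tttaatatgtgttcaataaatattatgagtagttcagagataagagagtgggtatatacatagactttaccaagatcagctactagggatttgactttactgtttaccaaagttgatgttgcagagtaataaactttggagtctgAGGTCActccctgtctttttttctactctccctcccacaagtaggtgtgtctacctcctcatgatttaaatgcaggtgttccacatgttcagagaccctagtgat
AGGTCA was searched on both strands, and 14.1% of 33469 promoters of this length hold it. The same window of Acaa1a, another PPAR alpha target described below, was also searched and held 0 matches. A match describes the letters only.

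The 12 genes with the largest rise, named by a rule of size, also included Defb43 (a beta-defensin), Opalin (a myelin membrane protein of oligodendrocytes), Dact2 (a Dishevelled-binding regulator of Wnt signalling), Mrgprb13 (a Mas-related receptor), Pou4f2 (a transcription factor of retinal ganglion cells) and Hoxd12 (a limb patterning homeobox gene). Their IRI means ran from -8.41 for Pou4f2 to -3.65 for Dact2. Across the processing alternatives the log2 differences of Mrgprb13 and Hoxd12 were as low as 0.92 and 0.99. None of the 12 was called against the mean of the other 3 acupoint groups, where the differences ran from -0.63 to 0.16 with adjusted p of 0.119 or more; 976 genes (7.57%) were called higher and 2333 (18.1%) lower in that comparison. That balance depends on the scale: quantile normalization gave 1109 higher and 939 lower, the authors' values 941 and 983, normexp 967 and 687, median scaling 3750 and 1538, and the 75th percentile of probes above background on all arrays 545 and 2595. In 11 of the 12, all but Pou4f2, the 16 acupoint arrays lay above all 8 sham and IRI arrays, a pattern seen in 0.287% of all genes. It was seen in 33 of the 242 genes called higher on all 3 scales. The 12 were picked from these 242 for size and for no overlap with IRI. The scan day divides the arrays the same way, and its part in the result was not tested. Pou4f2, not above background on any IRI array, was at least 2.42-fold higher and lost its call under normexp (adjusted p = 0.124), and the second probe of Opalin, not above background on any of the 8 arrays, differed by 0.89 against 3.89 for the first.

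**Figure D2:**
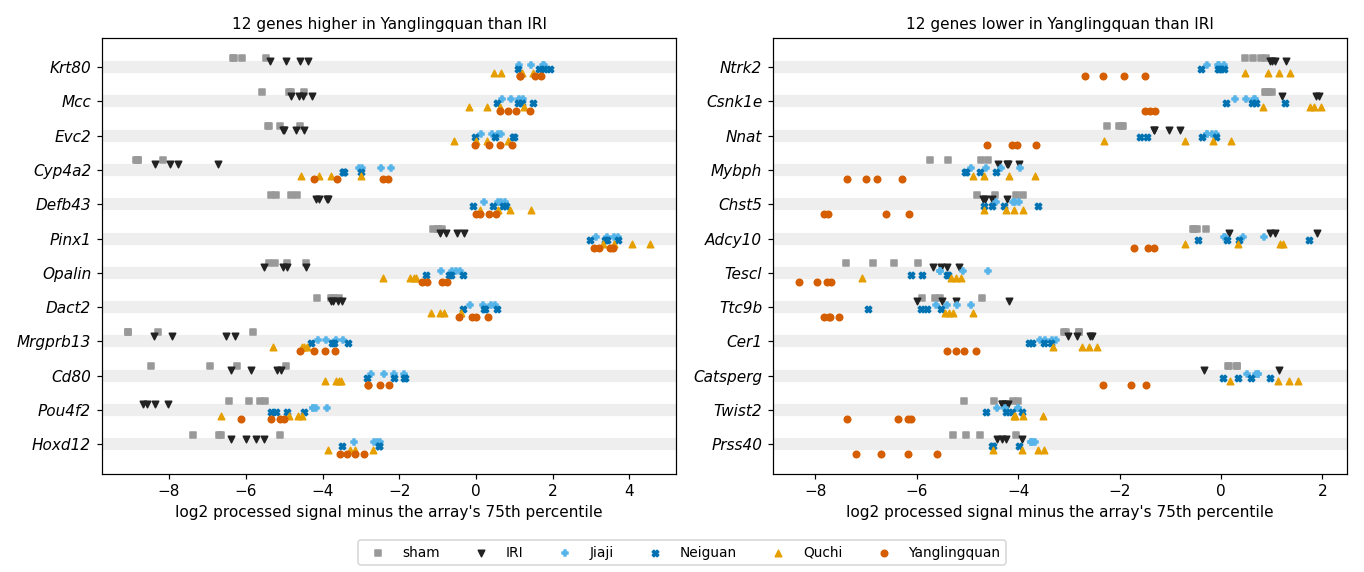
Log2 level relative to the array's 75th percentile for genes of largest difference, 1 point per array in each of the 6 groups. The risen genes are high in all 4 acupoint groups (Krt80 at 0.95 to 1.62 in their means), whereas the fallen genes such as Ntrk2 are lower in the Yanglingquan arrays than in the other acupoint groups.

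The largest falls behaved in the opposite way: they set Yanglingquan apart from every other group. Quchi array 1, at 75.6% of probes above background and scanned on a day of its own, was the lowest Quchi array in all but Ttc9b and Twist2. In Nnat it stood at -2.30, against -0.15, -0.71 and 0.20 on the other Quchi arrays. Whether array quality has a part in these falls was not tested. Ntrk2 codes for TrkB, the receptor of brain-derived neurotrophic factor, known from neurons and also from cardiac vessels and muscle. It stood at 0.97, 1.01, 1.07 and 1.28 in IRI and at -1.92, -2.67, -2.33 and -1.50 in Yanglingquan. The groups did not overlap, and the level was 9.12-fold lower (log2 -3.19 ± 0.20 SE, adjusted p = 1.62e-09). It was also 2.37 lower on the log2 scale than the mean of Jiaji, Neiguan and Quchi (adjusted p = 5.97e-08) and 2.80 lower than sham (adjusted p = 1.45e-08). The gene's 2 other probes, not well above background on any of the 8 arrays, differed by -0.51 and 0.36, so the result rests on 1 probe.

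Nnat codes for neuronatin, a small endoplasmic reticulum protein that acts on the calcium pump and is imprinted. It stood at -1.33, -1.31, -1.03 and -0.81 in IRI and at -4.62, -3.64, -4.02 and -4.13 in Yanglingquan, 7.90-fold lower (log2 -2.98 ± 0.39 SE, adjusted p = 4.97e-05). The difference from the other acupoint groups was larger still, at -3.49 (adjusted p = 4.03e-07), and its second probe, above background on 4 of the 8 arrays, differed by -0.85. Cer1, a secreted antagonist of BMP and Nodal, fell from -3.02, -2.84, -2.55 and -2.58 to -4.82, -5.40, -5.07 and -5.22 (5.21-fold lower, adjusted p = 1.02e-08), while its second probe, above background on 7 of the 8, differed by only -0.01.

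In 6 of the 12 largest falls no Yanglingquan array was well above background, so they carry lower bounds. These bounds hold on the scale of the levels given and not on every scale. Mybph, a myosin-binding protein related to that of the sarcomere, stood at -4.23, -4.40, -4.20 and -3.98 in IRI and was at least 2.94-fold lower (adjusted p = 6.77e-06). Twist2, a basic helix-loop-helix repressor of mesenchymal cells, stood at -4.32, -4.26, -4.20 and -4.32 in IRI and was at least 2.80-fold lower (adjusted p = 5.92e-06). Prss40, a serine protease, was at least 2.87-fold lower, Chst5, a sulfotransferase, at least 2.35-fold, Ttc9b at least 1.45-fold and Tescl at least 1.25-fold. Under normexp Mybph, Twist2, Prss40 and Chst5 kept their calls, but their log2 differences of -0.61, -0.58, -0.55 and -0.55 fell short of these bounds. The calls on Ttc9b and Tescl were lost under normexp (adjusted p = 0.081 and 0.125), with log2 differences of -0.36 and -0.34.

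The remaining 3 lacked spots on some arrays: Csnk1e, a casein kinase of the circadian clock, Adcy10, the bicarbonate-sensing soluble adenylyl cyclase, and Catsperg, a subunit of the sperm calcium channel. Csnk1e was measured on 3 arrays of each group, and where only probes above background on all 24 arrays were kept, another of its probes took its place and differed by 0.36 (adjusted p = 0.138). A further probe, above background on 7 of the 8 arrays, differed by -2.32, close to the first at -3.08. All 12 falls were also called against the other acupoint groups, and 11 against sham, where 749 genes (5.81%) were called higher and 933 (7.24%) lower; Adcy10 missed the threshold there (adjusted p = 0.159). Against sham, too, the balance moved with the processing, to 695 higher and 273 lower under normexp, 563 and 1212 with the 75th percentile of probes above background on all arrays, 670 and 492 with the stricter background filter, and 455 and 382 without sham array 2. In all 12 the Yanglingquan arrays lay below the other 20 arrays, as in 1.63% of all genes and 141 of the 417 lower genes. The 12 were picked from the 417 for size and for no overlap with IRI, so these shares are no test.

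Across the 659 genes called on all 3 scales the asymmetry was less sharp than among the 12 largest rises and the 12 largest falls. Against the other acupoint groups the calls on all 3 scales took in 3.7% of genes as higher and 6.8% as lower. Of the 417 lower genes, 281 were among the lower ones and 0 among the higher. Of the 242 higher genes, 80 were also called higher there, 12 lower and 150 neither way. Against sham, where the shares of all genes were 4.02% higher and 4.4% lower on all 3 scales, 99 of the 242 and 179 of the 417 were called the same way. The comparisons share the Yanglingquan arrays, so these counts are not independent of each other.

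Genes called the same way on all 3 scales against IRI, sham and the other acupoint groups numbered 20 higher and 130 lower; 19 and 54 of them were well above background on all arrays. The 12 of each with the largest difference were picked after their values were seen and are given as a description. The call against the other acupoint groups is against their mean, so a single group can lie level with Yanglingquan. The Yanglingquan arrays lay above the other 20 arrays in 5 of the 12 higher genes, and below them in all 12 lower genes. Tspan4, a tetraspanin that builds migrasomes, led the higher genes, with -0.19, -0.01, -0.13 and -0.13 in IRI and 0.69, 0.46, 0.69 and 0.79 in Yanglingquan. Its difference was 0.78 ± 0.14 SE on the log2 scale (1.71-fold, adjusted p = 0.00133) and 0.58 against the other acupoint groups (adjusted p = 0.00118). Ipo13, a nuclear transport receptor, rose from 1.69, 1.86, 1.76 and 1.79 to 2.01, 2.15, 2.50 and 2.59 (adjusted p = 0.0108). The Quchi arrays, at 2.29, 2.40, 2.32 and 2.05, lay within the Yanglingquan range of this gene.

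Phb1, the mitochondrial scaffold protein prohibitin, rose from 3.08, 3.09, 2.98 and 3.36 to 3.63, 3.67, 3.61 and 3.54 (1.40-fold, adjusted p = 0.00306), and its call was lost when the gene's probes were averaged (adjusted p = 0.0872), its second probe differing by 0.10. In all 3 genes no Yanglingquan array fell within the IRI range. The others ran from 0.47 for Rpusd3 to 0.75 for Abcc1, a multidrug export pump, and included Nudt17, Nol12, Car11, Hapln3, Cyp2t1, Zfp787 and Anapc13. Abcc1 lost its call with its probes averaged (adjusted p = 0.293), Hapln3, Cyp2t1 and Zfp787 under normexp (adjusted p = 0.0565, 0.0975 and 0.392), Rpusd3 with only the 2 groups fitted (adjusted p = 0.0648), and Anapc13 without IRI array 4 (adjusted p = 0.0541) or Yanglingquan array 2 (adjusted p = 0.0523).

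The lower genes moved much further. Wnt3, a secreted Wnt ligand, was bright on every array and fell from 3.93, 3.60, 3.77 and 3.99 to 1.64, 1.66, 1.97 and 1.64 (4.27-fold lower, log2 -2.09 ± 0.20 SE, adjusted p = 1.46e-06). Sftpc, the lung surfactant protein C, stood at -0.65, -1.40, -0.86 and -1.1 in IRI and at -2.52, -3.15, -3.48 and -3.03 in Yanglingquan (4.11-fold lower, adjusted p = 1.67e-05). In both genes the groups were clearly apart, and the sham means were 3.30 and -1.70. Ntrk2 and Nnat led this set, and the rest ran from -2.05 for Zfp609 to -1.43 for Wdr55, with Fam161a, Abcg3l3, Lrfn2 (a synaptic adhesion protein), Nkx6-2 (a homeobox factor of oligodendrocytes), Itih3 and Tmem158 between them. The second probes of Zfp609 and Fam161a, above background on all 8 arrays, differed by 0.34 and -0.31, against -2.05 and -1.80 for the first.

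**Figure D3:**
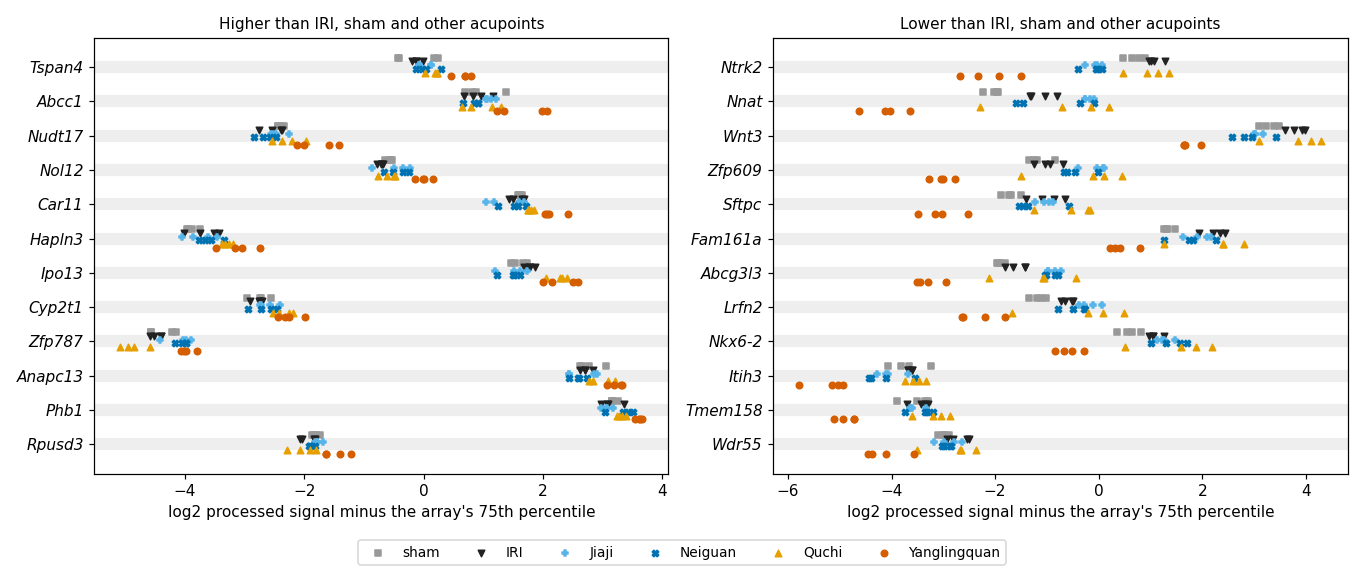
Log2 level relative to the array's 75th percentile, 1 point per array in each of the 6 groups, for the 12 higher and 12 lower genes called the same way against IRI, sham and the other acupoint groups, chosen after their values were seen. The Yanglingquan points of the higher genes lie only a little to the right (0.47 to 0.78 above IRI in their means), while those of the lower genes lie far to the left (-3.19 to -1.43).

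Genes of nerve and neurotrophin signalling were examined as lists, since acupuncture is thought to act through nerves. Of 14 neurotrophin ligands and receptors tested, 1 was called higher and 2 lower, where 4.09% and 8.03% of all genes were; counts this small cannot be set apart from those shares, here and in the short lists that follow. The list had a median of -0.15 on the 75th percentile scale and -0.03 after quantile normalization, against -0.04 and 0.01 for all genes. Apart from Ntrk2, the fall was in Cntfr, the receptor subunit of ciliary neurotrophic factor (at least 1.28-fold lower, not called after quantile normalization, adjusted p = 0.126, or under normexp, adjusted p = 0.189). The ligand Bdnf differed by -0.13 and the receptor Ngfr by -0.44, neither past the threshold, so the TrkB ligand and the low-affinity receptor were not called with Ntrk2. Of 21 neuron and Schwann cell genes, 2 were called higher and 3 lower, with a median of -0.22.

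S100b, one of the 3 lower genes, codes for a calcium-binding protein of glia that is also induced in injured heart muscle. It stood at -1.93, -3.11, -2.91 and -2.79 in IRI and at -4.22, -4.33, -4.76 and -4.39 in Yanglingquan (3.34-fold lower, log2 -1.74 ± 0.29 SE, adjusted p = 0.000686). It was also 2.0 lower on the log2 scale than the other acupoint groups (adjusted p = 1.1e-05), and its second probe, not above background on any of the 8 arrays, differed by 0.81. The groups were apart, while Sox10 (-0.14) and Mbp (-0.16), which Schwann cells also express, were not called. In bulk tissue, fewer cells of a type and less RNA per cell cannot be told apart.

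Adrenergic and muscarinic genes had a median of -0.04 over 26 genes, against -0.04 for all genes, with 1 called higher and 4 lower (over all genes 4.09% and 8.03%). Adrb1, the main beta-adrenergic receptor of heart muscle, stood at -3.70, -3.51, -3.48 and -3.33 in IRI and at -3.39, -3.65, -3.45 and -3.69 in Yanglingquan. These overlapped fully (difference -0.04 ± 0.14 SE, adjusted p = 0.891, and 0.10 after quantile normalization), and both groups were below sham, Yanglingquan by -0.68 (adjusted p = 0.00325). Pde3b, a phosphodiesterase that degrades cyclic AMP, fell from -3.18, -3.31, -3.37 and -3.60 to -4.21, -4.47, -4.11 and -4.21 (1.85-fold lower, adjusted p = 0.00254; normexp adjusted p = 0.0836), with no overlap. Adra1d, an alpha-1 receptor, fell by 1.29 (adjusted p = 0.0245), with overlapping groups, and lost its call without IRI array 1 or 4 or Yanglingquan array 3 or 4 (adjusted p of 0.0624 to 0.0914) and without the sex term (adjusted p = 0.0689).

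Among 32 calcium handling and ion channel genes, 3 passed as higher and 1 as lower (over all genes 4.09% and 8.03%), with a median of -0.12. Kcnj5, a subunit of the channel that acetylcholine opens in the atrium, rose from 0.38, 1.29, 1.1 and 0.56 to 1.55, 1.34, 1.67 and 1.60 (1.63-fold, adjusted p = 0.00504; 0.0722 with its probes averaged), with the groups close but not overlapping.

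Of 30 cell cycle genes tested, 0 were called higher and 2 lower, a share no larger than the 8.03% of all genes. Of the 30, 27 lay below 0, with a median of -0.76 on the 75th percentile scale and -0.55 after quantile normalization, against -0.04 and 0.01 for all genes; under normexp it was -0.38. Of these genes 2 are in the brightest class and 6 in the faintest. Against sham the list's median was -0.72 and against the other acupoint groups -0.37. Cdc20, the activator of the anaphase-promoting complex, stood at 2.72, 2.17, 2.45 and 2.76 in IRI and at 1.24, 1.42, 0.99 and 1.39 in Yanglingquan, 2.40-fold lower with no overlap (log2 -1.26 ± 0.16 SE, adjusted p = 2.71e-05). It was also lower than the other acupoint groups by -0.79 (adjusted p = 0.000185).

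Prc1, which bundles the microtubules of the central spindle, stood at -1.59, -2.83, -2.31 and -2.98 in IRI and at -3.32, -3.27, -3.76 and -3.15 in Yanglingquan (adjusted p = 0.0396). Its groups lay close, and the call was lost after quantile normalization (adjusted p = 0.101) and without IRI array 1 or 3 or Yanglingquan array 1, 2 or 3 (adjusted p of 0.0828 to 0.149). Its second probe, above background on 4 of the 8 arrays, differed by -2.99. The others did not pass the test; those with the largest differences were Aurkb (-1.47), Tpx2 (-1.27), Ttk (-1.24), Cenpf (-1.23) and Cdk1 (-1.0). The 25 DNA replication genes had a median of -0.34, 0 called higher and 2 lower; one was the replication licensing factor Cdt1, at least 1.45-fold lower (adjusted p = 0.000641; normexp adjusted p = 0.254).

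The promoters of Cdc20 and Prc1 are shown because these were the 2 called members of the list. Many mitotic promoters carry repeated CCAAT boxes, which the factor NF-Y binds. Each window is the 250 bases before the start in RefSeq, GRCr8 build, on the gene's own strand: chr5:137255800-137256049 on the minus strand for Cdc20 and chr1:143659231-143659480 on the plus strand for Prc1. Capitals mark CCAAT, or ATTGG where the box lies on the opposite strand.
Cdc20: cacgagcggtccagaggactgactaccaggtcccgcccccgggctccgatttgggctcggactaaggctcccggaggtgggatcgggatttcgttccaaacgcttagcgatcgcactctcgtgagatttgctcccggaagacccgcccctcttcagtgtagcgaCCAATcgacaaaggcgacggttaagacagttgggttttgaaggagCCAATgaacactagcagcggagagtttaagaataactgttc
Prc1: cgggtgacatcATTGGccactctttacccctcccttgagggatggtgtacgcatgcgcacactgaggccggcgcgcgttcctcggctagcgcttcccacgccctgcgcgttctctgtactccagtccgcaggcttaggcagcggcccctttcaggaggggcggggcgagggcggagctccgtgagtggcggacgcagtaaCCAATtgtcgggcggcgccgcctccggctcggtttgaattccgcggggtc
Each window held 2 boxes. CCAAT was searched on both strands, and 34.0% of 33469 promoters hold at least 1, so its presence in this window sets neither gene apart.

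Genes of fuel use and contraction were higher on the 75th percentile scale, and most of these calls depended on the scale. On that scale 4.09% of all genes and 8.78% of the brightest class were called higher. Of 22 genes of the carnitine shuttle and beta oxidation (19 in the brightest class), 6 were called higher and 0 lower. Their median of 0.39 became 0.13 with 0 called after quantile normalization. Of 40 respiratory chain genes 17 rose with a median of 0.34, which became -0.04 with 0 higher and 2 lower. All 40 belong to the brightest class of genes, where 8.78% were called higher. Of 23 sarcomere genes (20 in the brightest class) 10 rose with a median of 0.41, which became 0.02. Of 35 ribosomal protein genes (35 in the brightest class) 16 rose with a median of 0.42, which became -0.01. The authors' processed values gave medians of 0.13, -0.04, 0.02 and -0.01 for these 4 lists, and normexp gave 0.39, 0.36, 0.45 and 0.45.

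Single genes show the same split. Acadl, a dehydrogenase of long-chain beta oxidation, rose from 6.32, 6.81, 6.72 and 6.52 to 7.12, 7.21, 7.43 and 7.39 (1.62-fold, adjusted p = 0.002), without overlap, and by 0.12 after quantile normalization (adjusted p = 0.584). Cd36, the fatty acid transporter of the cell surface, rose from 4.74, 5.17, 5.34 and 5.18 to 5.65, 5.51, 6.13 and 6.16 (1.69-fold, adjusted p = 0.00445), against 0.39 after quantile normalization (adjusted p = 0.182). Myl3, the ventricular essential myosin light chain, rose from 6.92, 6.99, 6.87 and 7.05 to 7.77, 8.04, 7.55 and 7.68 (adjusted p = 0.000412), against 0.17 (adjusted p = 0.132). In all 3 the groups were apart on the first scale and the call was lost on the second.

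Others that lost their call in this way were Fabp3 and Etfb of fatty acid handling, Atp5f1a, Uqcrb and Ndufv1 of the respiratory chain, the troponins Tnni3 and Tnnt2, the chaperones Cryab and Hspa8, the calcium pump Atp2a2 and its regulator Pln, and the ribosomal proteins Rpl11 and Rplp2. Their differences were 0.58 to 0.78 on the 75th percentile scale and 0.02 to 0.40 after quantile normalization, with adjusted p of 0.224 or more there. Atp5pb, of the ATP synthase, and Ldhb, the heart type lactate dehydrogenase, went from 0.55 and 0.57 to -0.03 and -0.08. The intensities of 8 cardiomyocyte markers were also summed, a sum in which the brightest markers weigh most. The log2 of this sum ran from 9.59 to 9.76 on the IRI arrays and from 10.02 to 10.61 on the Yanglingquan arrays. Of the 8 markers 6 were called higher. Their median difference was 0.59, and 0.02 after quantile normalization.

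A few fuel genes held on all 3 scales. Acaa1a, a peroxisomal thiolase and PPAR alpha target, rose from 1.52, 1.75, 1.78 and 1.60 to 2.19, 2.27, 2.72 and 2.73 (1.76-fold, log2 0.81 ± 0.15 SE, adjusted p = 0.00163). The groups did not overlap, its second probe differed by 0.67, and the gene was 0.64 higher than in the other acupoint groups (adjusted p = 0.000936) and 0.53 higher than in sham (adjusted p = 0.0281).

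Bckdk, the kinase that shuts down branched-chain amino acid oxidation, rose from 1.01, 0.91, 1.01 and 1.06 to 1.39, 1.29, 1.76 and 1.51 (1.41-fold, adjusted p = 0.00548; 0.0546 with only the 2 groups fitted), with no overlap. Of the 20 PPAR targets and regulators tested, 3 were called higher and 0 lower, with a median of 0.09. The coactivator Ppargc1a differed by -0.05 and Pdk4, which turns the heart from glucose to fat, by 0.61 (adjusted p = 0.356). Angptl4, an inhibitor of lipoprotein lipase, stood at 1.51, 2.97, 3.04 and 1.90 in IRI and at 1.50, 2.25, 4.42 and 4.36 in Yanglingquan; the groups overlapped (adjusted p = 0.43), and Yanglingquan was 2.89 above sham (adjusted p = 0.0031).

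**Figure D4:**
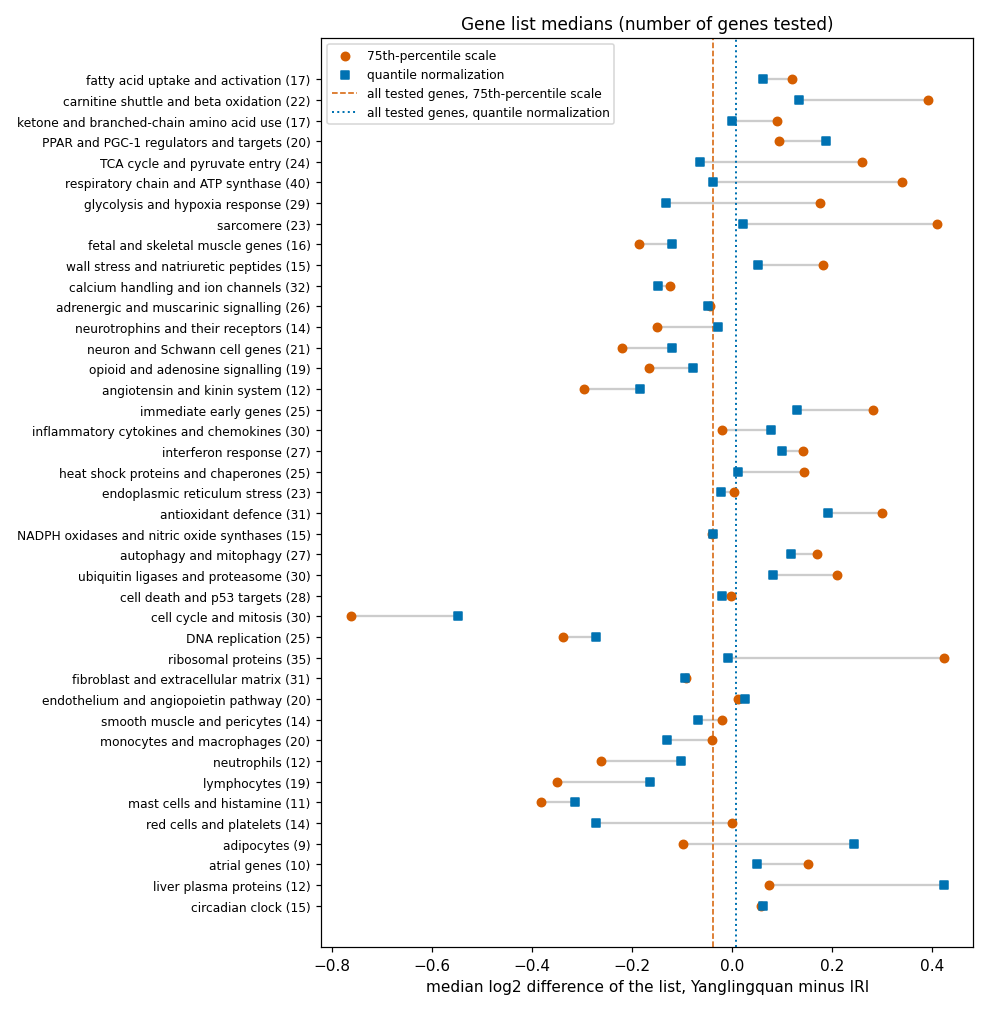
Median log2 difference of Yanglingquan minus IRI over the tested genes of each of 41 lists, on the 75th percentile scale and after quantile normalization. The respiratory chain, sarcomere and ribosomal lists move from 0.34, 0.41 and 0.42 to -0.04, 0.02 and -0.01, whereas the cell cycle list, with 2 of 30 genes called, lies at -0.76 and -0.55.

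Genes of acute injury were for the most part not called between the groups, which was also so for all genes, of which 12.1% were called. Against sham 5.81% of all genes were called higher. Of 25 immediate early genes 0 were called in either direction, with a median of 0.28 and of 0.13 after quantile normalization; against sham the median was 0.54, with 4 called higher. Of 30 inflammatory genes 1 was called higher and 3 lower, with a median of -0.02, against 0.34 and 4 higher relative to sham. Cxcl1, a neutrophil chemokine, stood at 2.19, 3.42, 2.33 and 3.54 in IRI and at 2.95, 3.22, 2.15 and 2.44 in Yanglingquan, an overlap (difference -0.18 ± 0.38 SE, adjusted p = 0.807), and was 1.87 above sham (adjusted p = 0.00296).

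Il6, the main acute phase cytokine, stood at -1.81, -1.14, -2.90 and -0.51 in IRI and at -0.92, -0.85, -2.95 and -3.14 in Yanglingquan. Both groups spread widely and overlapped (difference -0.37 ± 0.54 SE, adjusted p = 0.71), and Yanglingquan was 1.76 above sham (adjusted p = 0.0366). Fos (-0.24 ± 0.39 SE), Atf3 (-0.04 ± 0.37 SE) and Il1b (-0.17 ± 0.35 SE) were not called either. A missed threshold with errors of this size does not show equal levels.

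Of 15 wall stress and natriuretic peptide genes 0 were called higher and 1 lower, with a median of 0.18. The lower one was Nppc, C-type natriuretic peptide, at -6.04, -6.26, -5.68 and -5.67 in IRI and at -6.42, -7.03, -8.15 and -7.39 in Yanglingquan, without overlap but with no Yanglingquan array above background (adjusted p = 0.0411). Its call was lost after quantile normalization (adjusted p = 0.487), with the authors' values (0.441), under normexp (0.577), with median scaling (0.0526) and on leaving out any 1 of 7 of the 8 arrays (0.0572 to 0.131). The main injury markers overlapped. Nppa, atrial natriuretic peptide, stood at 3.33, 3.23, 3.14 and 2.96 in IRI and at 2.96, 3.84, 2.59 and 3.65 in Yanglingquan (difference 0.09 ± 0.63 SE, adjusted p = 0.944), and Nppb (0.18) and Ankrd1 (0.29) were not called; the differences of all 3 turned slightly negative after quantile normalization. Of the 16 fetal and skeletal muscle genes 2 were called higher and 3 lower. Myh3, the embryonic myosin heavy chain, fell from -3.20, -2.98, -2.76 and -2.64 to -4.23, -4.48, -4.09 and -4.34 (2.62-fold lower, log2 -1.39 ± 0.21 SE, adjusted p = 0.000276), without overlap and with its second probe at -0.68.

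Among regulators of inflammation and vessels, Socs1, which brakes cytokine signalling through JAK kinases, fell from -3.66, -3.74, -3.82 and -3.84 to -4.15, -4.45, -4.84 and -4.47 (1.64-fold lower, adjusted p = 0.00267; normexp adjusted p = 0.107). It did not overlap IRI and lay near the sham mean of -4.60 (difference from sham 0.12, adjusted p = 0.615). Angpt1, the Tie2 ligand that stabilises vessels, rose from -0.24, 0.68, 0.72 and 0.43 to 1.34, 0.99, 1.40 and 1.23 (1.80-fold, log2 0.84 ± 0.20 SE, adjusted p = 0.00972), without overlap. Its receptor Tek differed by -0.21 and its antagonist Angpt2 by -0.04, neither called, and 1 of 20 endothelial genes was called higher and 2 lower.

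Those 2 were Apln, the ligand of the apelin receptor (-0.70, adjusted p = 0.0117; 0.0538 without IRI array 3, 0.0517 with median scaling and 0.0566 with only the 2 groups fitted), and Sox17, an arterial transcription factor (-0.77, adjusted p = 0.0263), which lost its call without IRI array 3 or 4 or Yanglingquan array 1 or 2 (adjusted p of 0.0582 to 0.0932). Of the antioxidant and stress lists, Noxa1, an activator of NADPH oxidase, held on all scales. It rose from -2.67, -3.07, -2.72 and -2.66 to -2.08, -2.17, -2.25 and -2.07 (1.55-fold, adjusted p = 0.00265), with no overlap, yet was lower than the other acupoint groups by -0.38 (adjusted p = 0.0102). Hmox1, heme oxygenase 1, differed by 0.48 ± 0.33 SE (adjusted p = 0.382).

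Of the 30 proteasome and ubiquitin genes 9 rose on the 75th percentile scale and 0 after quantile normalization; 25 of them lie in the brightest class, where 8.78% rose. They had a median of 0.21 that became 0.08, and of 27 autophagy genes 4 rose with a median of 0.17 that became 0.12. Of the 15 clock genes tested 2 were called higher and 2 lower, with a median of 0.06. Npas2, a partner of Bmal1, stood at -2.02, -1.99, -1.68 and -1.94 in IRI and at -3.53, -3.54, -2.08 and -2.75 in Yanglingquan (2.09-fold lower, adjusted p = 0.0117). The groups were apart, though Yanglingquan array 3 came close, the difference from the other acupoint groups was -0.07 (adjusted p = 0.847), and its second probe, well above background on all 8 arrays, differed by -0.03.

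**Figure D5:**
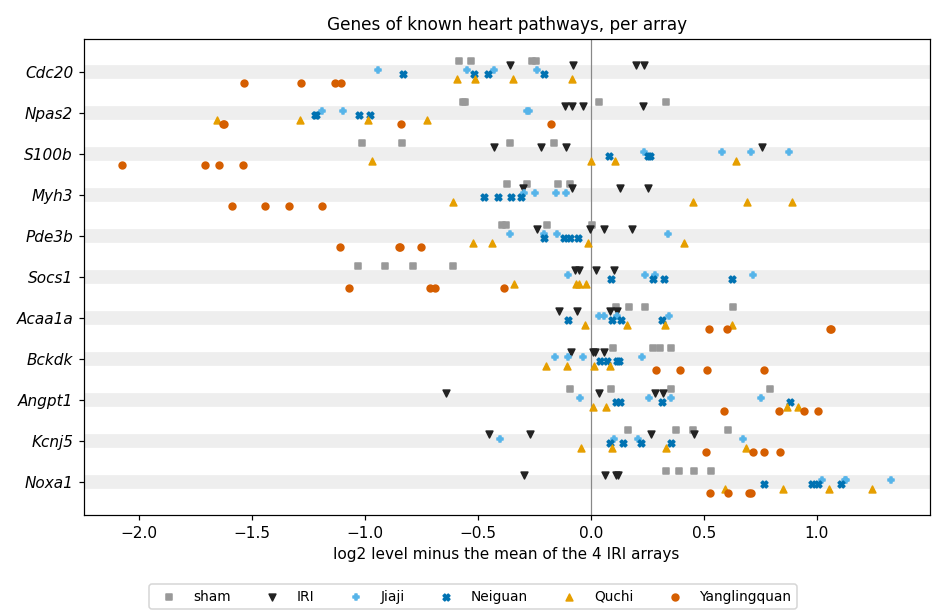
Log2 level of 11 genes of known heart pathways minus the mean of the 4 IRI arrays, 1 point per array in each of the 6 groups, with the line at 0 marking that mean. In Cdc20, S100b and Myh3 the Yanglingquan points lie to the left of the IRI points, by -1.26, -1.74 and -1.39 in their means, and in Acaa1a and Angpt1 to the right, by 0.81 and 0.84.

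Counts of called markers of other cells were small and cannot be set apart from the 4.09% of all genes called higher and 8.03% called lower. Of the lists of macrophage, interferon and red cell genes 0 were called in either direction on the 75th percentile scale (after quantile normalization 1 macrophage gene was higher and 1 red cell gene lower, as with the authors' values), and of 31 fibroblast and matrix genes 1 fell, Col1a1 of type I collagen (-0.97, adjusted p = 0.0271; adjusted p of 0.0561 to 0.106 without IRI array 2 or 4 or Yanglingquan array 3, and 0.18 without the sex term). Col1a1 ranged from 2.49 to 4.32 in IRI and from 1.39 to 2.83 in Yanglingquan, an overlap. Lymphocyte and mast cell genes had medians of -0.35 and -0.38, with 0 higher and 1 lower of 19 and 0 higher and 2 lower of 11. Of 9 adipocyte genes 1 was higher and 1 lower, of 12 neutrophil genes 0 and 1, and of 14 smooth muscle and pericyte genes 1 and 0. Genes of smell, pheromone and taste receptors, which heart muscle hardly expresses, were called higher in 29 and lower in 112 of 572 (5.07% and 19.6%). On all 3 scales the counts were 28 and 38 (4.9% and 6.64%). For the 12894 genes tested these shares were 4.09% and 8.03%, and 1.88% and 3.23% on all 3 scales. In the faintest class 2.08% rose and 19.8% fell on the 75th percentile scale. Whether brightness has a part in the receptor shares was not tested.

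The 41 lists together hold 867 tested genes. Of these 99 were called higher and 40 lower on the 75th percentile scale, where 4.09% and 8.03% of all genes were. On all 3 scales 9 were called higher and 18 lower, against 1.88% and 3.23% of all genes. The share called higher was thus above that of all genes on the first scale and below it on all 3. The difference between Yanglingquan and IRI was also tested for dependence on sex with an interaction term in limma. Of 12883 genes 0 were called, 994 had an unadjusted p under 0.05, and the smallest adjusted p was 0.276. Leaving out 1 Yanglingquan array at a time gave 3 to 6 genes, and leaving out 1 IRI array gave 0; these fits leave 1 array of a sex in a group, which is assumed to vary like the other groups. The test rests on 2 animals of each sex per group.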

How the data were processed

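The series measured myocardial RNA on 24 single-colour arrays, 4 in each of 6 groups. Per the file headers, the spot intensity values came from Agilent Feature Extraction 11.0.1.1, which subtracts background and removes spatial trends (10.7.3.1 in the submitters' processing notes). The other values used, flags of 0 or 1 for background, saturation and outliers, were set per spot by the same software, per the file headers. A deposited table of the authors' log2 values, whose columns share a median of 7.20, was used as an alternative; its lowest correlation with the same array's log2 intensity was 0.997, and the sources used here do not name the tool that normalized it.

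Per array 1377 control spots and, over all arrays, 8733 outlier spots were left out; none of the spots kept was saturated. Averaging the spots of each probe left 30367 probes, of which 18005 (59.3%) have a gene symbol through RefSeq accessions and 12362 were not named. A gene was represented by its brightest probe that passed the background flag on every array of 1 group or more, which gave 12894 genes. Intensities were log2 transformed after scaling to the 75th percentile of each array and fitted with limma 3.58.1 in R 4.3.3 (lmFit, eBayes) to the 24 arrays, with terms for group and sex, 17 residual degrees of freedom and Benjamini-Hochberg adjustment. The sex interaction used a fit of 12 group-by-sex means. The number of arrays limits the precision. On simulated data for 12894 genes the fit of Yanglingquan minus IRI recovered 13, 33, 47 and 50 of 50 genes changed by 0.5, 1, 2 and 3 on the log2 scale, with 9 calls among unchanged genes.

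Members, gene lists and tests were chosen with earlier results of these data known. Genes named are the 12 higher and 12 lower with the largest difference among those called on all 3 scales without overlap of the 8 arrays (leaving out uncharacterised symbols and smell, pheromone and taste receptors, which were counted as a group), up to 4 called members of smallest p in each list, and a panel of injury, fuel and nerve genes; those picked after their values were seen are marked as such, and a few genes that these rules pick are not reported here. Lists are described by counts and medians. Alternatives were quantile normalization, median scaling, the 75th percentile over probes above background on all arrays, normexp background correction (offset 50, on the median spot signal), the authors' values, only the groups compared, no sex term, a replicate block, other filters, averaged or all probes, and leaving out each array. Replicate numbers do not pair the arrays by any label.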

Additional observations from a re-analysis of the deposited data

Results flagged for a closer look

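Among 311 groups of 4 arrays examined for the genes named, 8 held an array whose gap to its nearest neighbour took up more of the group's range than Dixon's limit for 4 samples. Chance alone marks about 1 group in 20, so 8 of 311 is no more than chance gives. In the IRI group these were Ldhb on the second array (level 7.21, share of the range 0.8969), Prkar1a on the first (4.21, 0.9444), Noxa1 on the second (-3.07, 0.8568), Cidea on the second (4.92, 0.92) and Pdk4 on the third (1.78, 0.9117). In the Yanglingquan group they were Myh7 on the fourth (7.57, 0.8871), Ndufs1 on the second (5.58, 0.9652) and Wnt3 on the third (1.97, 0.9449). The second IRI array accounts for 3 of the 8. Of the genes whose calls the results turn on, Noxa1 and Wnt3 kept their calls without each array in turn.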

How the results depend on the processing

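The count of genes called between Yanglingquan and IRI, 1563, became 856 after quantile normalization, 858 with the authors' values, 653 under normexp, 860 where probes had to be above background on all 24 arrays and 3764 where every probe was tested; without 1 array it ran from 1075 to 1362. Against sham, 1682 became 968 under normexp, 786 with only the groups compared and 4349 over every probe, and 837 to 1596 without 1 array, the lowest without the second sham array; without the fourth Yanglingquan array it was 1106. Against the other acupoint groups, 3309 became 2048 after quantile normalization, 1924 with the authors' values, 1654 under normexp, 5288 with median scaling, 2171 with the stricter filter and 7329 over every probe, and 2455 to 3593 without 1 array. Genes called on all 3 scales, 659, became 388 where a call under normexp was also asked for, and 420 to 537 without 1 array; both were chosen after seeing the data. The sex interaction had 0 calls, 1 with averaged probes and 0 to 6 without 1 array. The share of probes above background differed by -12.5 to -10.0 points without 1 array. Replicate numbers did not pair the arrays: the deviations of same-numbered arrays correlated at 0.136, -0.141, 0.246 and -0.231. A replicate block gave 1524 calls (517 higher, 1007 lower). Slide, as inferred from the scan times, was not run as a random block, since the Yanglingquan and IRI arrays then lie on 1 slide each. Of the values of named genes under the alternatives, 2486 kept direction and side of the threshold, 437 lost the call and 65 changed sign; of those of list medians 705 moved by less than the spread and 74 by more. The cause of these shifts was not tested.

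Signs turned as follows, after quantile normalization and with the authors' values in that order: Idh2 -0.075 and -0.075, Suclg1 -0.013 and -0.012, Sdha -0.063 and -0.062, Atp5pb -0.032 and -0.031, Ldhb -0.079 and -0.078, Tpi1 -0.13 and -0.13, Gapdh -0.18 and -0.17, Rpl19 -0.0083 and -0.0075, Myh6 -0.13 and -0.13, Nppa -0.011 and -0.025, Nppb -0.19 and -0.19, Ankrd1 -0.048 and -0.048, Ndufs1 -0.21 and -0.21, Ngfr 0.031 and 0.30, Adrb1 0.095 and 0.087, Pecam1 -0.19 and -0.19. With the stricter filter Csnk1e was 0.36. With median scaling Ppargc1a was 0.065, Atf3 0.042 and Adrb1 0.077. Under normexp Atf3 was 0.039 and Pecam1 -0.014, and with the 75th percentile of probes above background on all arrays Pecam1 was -0.057. Without 1 array, values on both sides of 0 were seen in 10 genes, with ranges of -0.11 to 0.022 for Adrb1, -0.33 to 0.26 for Atf3, -0.50 to 0.10 for Bdnf, -0.50 to 0.093 for Cxcl1, -0.49 to 0.14 for Fos, -0.42 to 0.067 for Il1b, -0.10 to 0.27 for Nppa, -0.051 to 0.11 for Pecam1, -0.16 to 0.041 for Ppargc1a, -0.43 to 0.12 for Ucp3. Of these genes Csnk1e, Idh2, Suclg1, Sdha, Atp5pb, Ldhb, Tpi1, Gapdh, Rpl19 and Myh6 were called on the 75th percentile scale and the others were not.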
